A study of Mus musculus with 4 samples.

Results

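Elastic fibres give vessel walls, skin and lung their recoil. Each fibre has a core of cross-linked elastin laid down on microfibrils, which are bundles of fibrillin that carry further proteins along their surface and hold growth factors of the TGF-beta and BMP families in store. Fibulins bridge elastin, fibrillin and cell surface integrins during assembly, and elastic fibres are part of the wall of collecting lymphatic vessels. Described here are 10 genes of these structures: Eln, Fbn1, Fbn2, Mfap2, Mfap5, Mfap4, Ltbp2, Fbln1, Fbln2 and Fbln5. They were taken by name from the array annotation, keeping every probe set assigned to exactly 1 of them, and the probe set with the highest mean signal over all arrays represents its gene. Of the 10 genes, 9 had a probe set, 17 probe sets in all, out of 18193 genes with one on the arrays. Fbn1, the main fibrillin gene, was not analysed here.

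The study asked how the endothelium of collecting lymphatic vessels differs when the tumour they drain makes VEGF-D, a factor known for driving the growth of lymphatic vessels. Flank tumours of 293EBNA cells, a human embryonic kidney line, were grown in mice to 2000 mm3. In the VEGFD group the tumour cells carried a vector with VEGFD, and in the Apex group they carried the same vector empty, with 2 arrays in each group. Per the labels, draining vessels were marked with a dye injected into the tumour and dissected, and endothelial cells were collected by magnetic sorting, although the extraction text speaks of lymph node endothelium. The labels give no strain, age, sorting antibody or number of mice behind an array, so p-values measure the spread between these arrays. The source of the added VEGF-D was thus the implanted cells and not the mouse.

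The endothelial label was not borne out evenly. Among 10 pan-endothelial markers, 4 and 1 reached the signal of 25.3 used as the filter on dim genes in VEGFD replicates 1 and 2, and 4 and 10 did so in Apex replicates 1 and 2. Their summed signal was 287 and 164 in VEGFD arrays and 278 and 3565 in Apex arrays, so Apex replicate 2 stood apart. Pecam1, which encodes CD31, was at 3.25 and 2.22 in VEGFD arrays and 2.92 and 141 in Apex arrays. Of 11 fibroblast markers, 9 to 10 reached the filter signal on every array, with summed signals of 30141 and 29349 in VEGFD arrays and 31418 and 33174 in Apex arrays. Such sums can hide single genes. Dpt, named after its values were seen, had 204 and 168 in VEGFD arrays and 2725 and 2407 in Apex arrays. Of the 9 fibroblast markers tested, 5 were higher and 4 lower in VEGFD arrays, and 0 passed an adjusted p of 0.05. Smooth muscle and pericyte markers, 11 in all, reached the filter signal for 8 to 10 genes, with sums of 9524 and 18783 in VEGFD arrays and 7789 and 9167 in Apex arrays. Adipocyte markers summed to 1164 and 1227 in VEGFD arrays and 2001 and 4517 in Apex arrays. Lymphatic (1521 and 2057 in VEGFD arrays, 1211 and 2350 in Apex arrays), blood endothelial (498 and 794 in VEGFD arrays, 1106 and 1838 in Apex arrays), leukocyte (551 and 712 in VEGFD arrays, 677 and 622 in Apex arrays), epithelial (237 and 150.1 in VEGFD arrays, 393 and 499 in Apex arrays) and chondrocyte or tenocyte markers (223 and 149.5 in VEGFD arrays, 410 and 302 in Apex arrays) had lower sums than fibroblast markers on every array. Most of the lymphatic sum was Pdpn, the podoplanin gene, which fibroblasts can also express, at 1237 and 1715 in VEGFD arrays and 963 and 1622 in Apex arrays. Prox1, the defining transcription factor gene of lymphatic endothelium, was under the filter signal on every array, at 3.19 and 5.94 in VEGFD arrays and 11.2 and 11.6 in Apex arrays. Lyve1 reached it only in Apex replicate 2, at 151. Flt4 and Nrp2, named after their values were seen, were above it on every array. Flt4 had 161 and 145 in VEGFD arrays and 42.6 and 247 in Apex arrays. For Nrp2 these were 34.2 and 122, and 148 and 246. Of 7 lymphatic markers with a probe set, 5 and 4 reached the filter signal in VEGFD arrays and 3 and 5 in Apex arrays.

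Among the elastic fibre and microfibril genes, Ltbp2 and Mfap5 had more signal in both VEGFD arrays than in either Apex array, while Eln, Mfap2 and the fibulin genes Fbln1, Fbln2 and Fbln5 overlapped between groups. Ltbp2, which encodes latent TGF-beta binding protein 2, was 3.94-fold higher, and Mfap5, which encodes the microfibril glycoprotein MAGP-2, was 1.79-fold higher. Of the 9 measured genes 7 reached the filter and were tested, and 0 passed an adjusted p of 0.05, where 0% of all 11677 tested genes did. Fold changes are ratios on the log2(signal + 16) scale, which understates the change of dim genes, and log2 changes are VEGFD minus Apex with the standard error (SE) of a limma fit over all tested genes, n = 2 and 2. In RNA of a whole cell preparation, fewer cells of a type and less RNA per cell cannot be told apart.

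Groups without overlap were found for 2 of 7 members, beside 38.5% of all tested genes, so lack of overlap alone sets none of them apart. The same 2, Ltbp2 and Mfap5, had an unadjusted p under 0.05, beside 5.7% of all genes (666). At least 2-fold higher without overlap was 1 of 7, Ltbp2, beside 1.09% of all genes (127), and 0 of 7 were at least 2-fold lower, beside 2.79% (326). With each array centred on its median those 2-fold counts over all genes were 192 higher and 239 lower. Of the 7 members, 4 had a positive and 3 a negative log2 change, with a median of 0.16, against -0.035 over all tested genes. The members' median was -0.060 without Apex replicate 2. The remaining measured members, Fbn2 and Mfap4, lay under the filter.

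**Figure D1:**
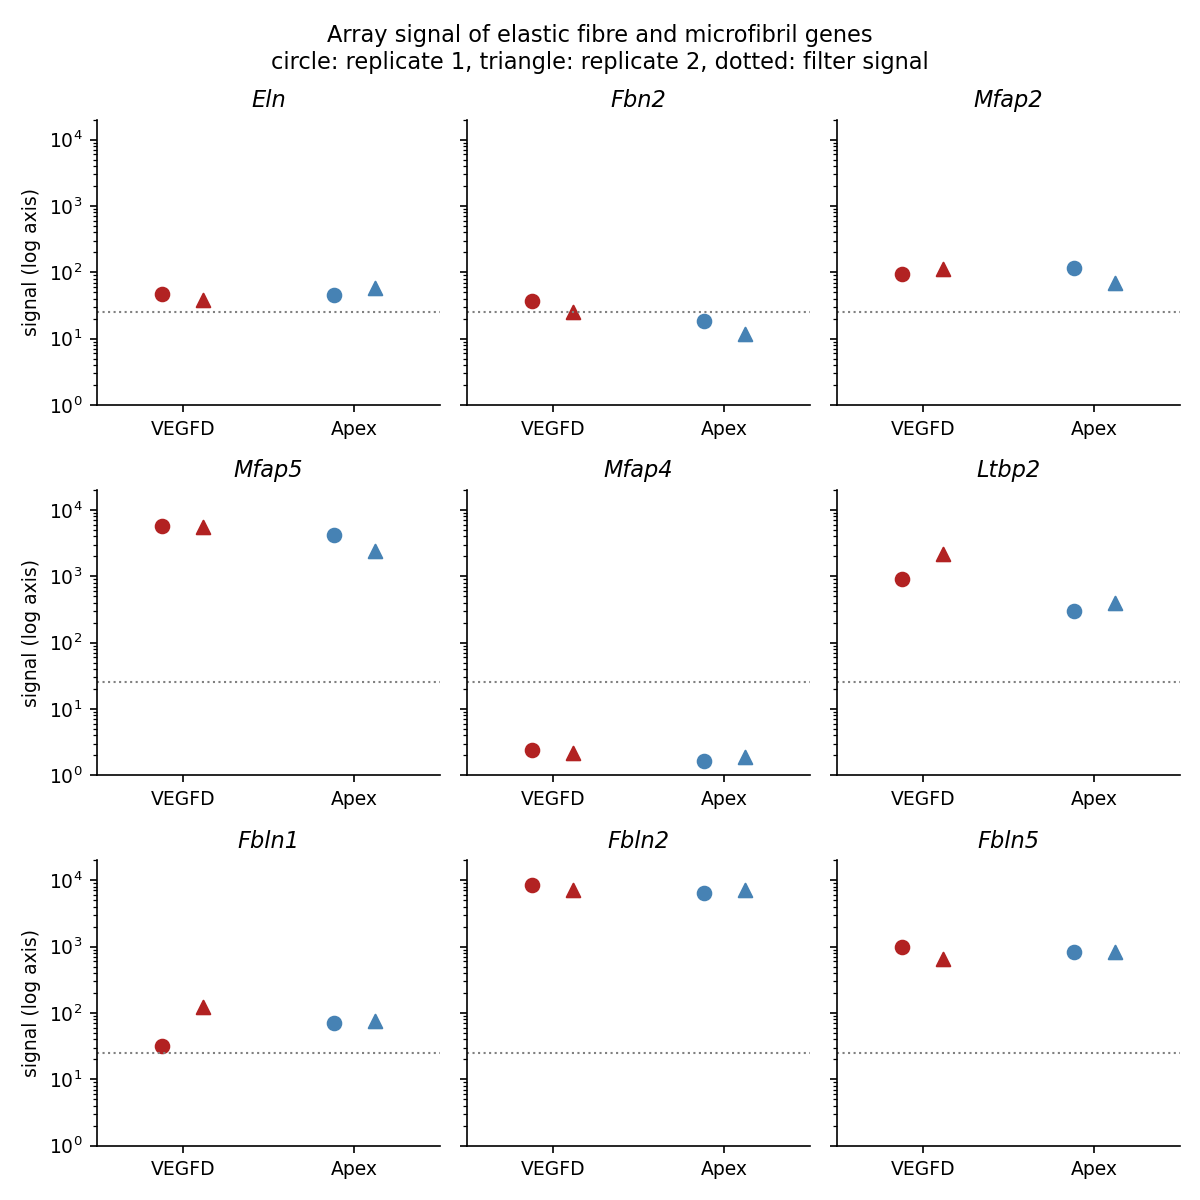
Signal of the representative probe set of each measured elastic fibre and microfibril gene (log axis), VEGFD arrays at the left of each panel and Apex arrays at the right; circles are replicate 1, triangles replicate 2, and the dotted line is the filter signal of 25.3. Ltbp2 lay at 915 and 2148 in VEGFD arrays and 298 and 398 in Apex arrays, and Mfap4 lay at 2.44 or less on every array.

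Ltbp2 had the largest difference of these genes. Its product resembles the latent TGF-beta binding proteins but does not itself bind latent TGF-beta, and it attaches to fibrillin microfibrils and to fibulin-5. Its single probe set had signals of 915 and 2148 in VEGFD arrays and 298 and 398 in Apex arrays. The groups did not overlap, and VEGFD replicate 2 was the highest array. The log2 change was 1.98 ± 0.44 (SE), with a 95% interval of 0.86 to 3.09, an unadjusted p of 0.00565 and a limma adjusted p of 0.767. With VEGFD replicate 1 left out it was 2.59 and passed (adjusted p = 0.0105), in a fit where the spread comes from the Apex arrays alone and 372 genes passed. With VEGFD replicate 2 left out it was 1.37 (adjusted p = 0.293), and with Apex replicate 2 left out 2.18. The replicates themselves were 2.35-fold apart in VEGFD arrays and 1.34-fold apart in Apex arrays.

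Among the smooth muscle and pericyte markers, 10 were tested, of which 6 were higher and 4 lower in VEGFD arrays, with a median log2 change of 0.51. The highest sum of that list was in VEGFD replicate 2, the array where Ltbp2 was also highest. Acta2, the gene of smooth muscle actin, which myofibroblasts also make, had signals of 4840 and 8802 in VEGFD arrays and 3525 and 4096 in Apex arrays. Tagln, which encodes the actin-binding protein SM22, had 1632 and 5553 in VEGFD arrays and 454 and 746 in Apex arrays. Myl9, also a leading marker of the list, had 638 and 2387 in VEGFD arrays and 421 and 217 in Apex arrays. Its groups did not overlap, with a log2 change of 1.97. Cnn1 (1.30) and Actg2 (0.79), named with their values known, were higher too, but overlapped between groups. Myh11, the smooth muscle myosin gene and a defining marker, was likewise named with its values known. It was below the filter signal on every array, at 16.3 and 19.2 in VEGFD arrays and 17.2 and 11.8 in Apex arrays. The 4 lower genes, named with their values known, were Pdgfrb, Notch3, Des and Rgs5, of which Pdgfrb, Notch3 and Rgs5 are often used as pericyte markers. Pdgfrb had 2123 and 1268 in VEGFD arrays and 2978 and 3479 in Apex arrays, a log2 change of -0.97. Notch3 (-1.17) and Des (-1.33) likewise did not overlap between groups, while Rgs5 (-0.34) did, so the list held differences in both directions. Not every pericyte marker was lower. Cspg4, also named with its values known, had 61.7 and 299 in VEGFD arrays and 109 and 124 in Apex arrays. Its groups overlapped, with a log2 change of 0.25. The part of such cells in the Ltbp2 difference was not tested.

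The promoter sequences of Ltbp2 and of Fbln5 are shown because the products of both are part of the same fibres while the readouts differed: Ltbp2 was higher in VEGFD arrays and Fbln5 had nearly equal means. Sequences are from RefSeq (GRCm38.p6), end at the base before the outermost annotated start of the gene and run 5′ to 3′ on the gene's strand, the minus strand for both. Capitals mark matches to CAGAC, the SMAD core, or to GGGCGG, an Sp1 box, on either strand. Of the 10 genes, 6 had an entry in the promoter table.
Ltbp2, chr12:84876559-84876741: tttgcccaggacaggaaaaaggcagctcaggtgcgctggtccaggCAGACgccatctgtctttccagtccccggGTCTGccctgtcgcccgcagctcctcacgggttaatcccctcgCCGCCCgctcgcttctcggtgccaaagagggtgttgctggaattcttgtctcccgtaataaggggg
Fbln5, chr12:101819120-101819369: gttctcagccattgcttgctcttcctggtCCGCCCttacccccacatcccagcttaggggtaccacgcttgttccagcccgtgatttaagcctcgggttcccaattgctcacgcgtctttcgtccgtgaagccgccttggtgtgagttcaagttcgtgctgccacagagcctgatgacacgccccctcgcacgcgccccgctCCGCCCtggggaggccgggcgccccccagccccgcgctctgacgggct

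The 183 bases of Ltbp2 held 2 matches to CAGAC, a motif present in 33.6% of 32851 promoter windows cut to the same length, and 1 match to GGGCGG (21.5% of windows). Windows were cut from their upstream end, so at 183 bases the part nearest each window's annotated start was not counted. The 250 bases of Fbln5 held 0 matches to CAGAC (42.2% of windows) and 2 to GGGCGG (32.7%). Neither stretch held GGAATG, the TEAD motif (9.91% and 12.6% of windows at the lengths of Ltbp2 and Fbln5), or TGANTCA, the AP-1 motif (4.99% and 6.75%). None of these motifs overlapped another. The matches describe letters only, and binding was not measured.

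Mfap5 was the other member without overlap between groups. MAGP-2 binds fibrillin and carries an integrin-binding site. Its brightest probe set had signals of 5741 and 5476 in VEGFD arrays and 4144 and 2366 in Apex arrays. The VEGFD arrays were 1.05-fold apart and the Apex arrays 1.75-fold, with Apex replicate 2 the lowest. The log2 change was 0.84 ± 0.31 (SE), with a 95% interval of 0.053 to 1.62, an unadjusted p of 0.0404 and a limma adjusted p of 0.823. Leaving out Apex replicate 2 gave 0.43, and leaving out Apex replicate 1 gave 1.24. Its second probe set gave 1576 and 1646 in VEGFD arrays and 1147 and 438 in Apex arrays, again without overlap, with a log2 difference of 1.16. Apex replicate 2, where both probe sets were lowest, had the highest pan-endothelial, lymphatic, blood endothelial, fibroblast, adipocyte and epithelial sums given above. The part of those cells in the difference was not tested.

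Mfap2, which encodes MAGP-1, the widely expressed relative of MAGP-2, overlapped between groups. Its signals were 93.8 and 113 in VEGFD arrays and 115 and 70.1 in Apex arrays. The lowest and the highest value were both Apex arrays. The log2 change was 0.16 ± 0.31 with a 95% interval of -0.63 to 0.95 (adjusted p = 0.916), or a VEGFD to Apex ratio of 0.648 to 1.93. It was -0.14 without Apex replicate 2. Its dimmer probe set, at 8.88 and 15.7 in VEGFD arrays and 10.1 and 27.3 in Apex arrays, had the opposite sign.

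The only fibrillin gene measured, Fbn2, and the elastin gene Eln were dim, and Fbn1 was not analysed. Fbn2, which encodes a fibrillin most abundant in developing tissue, had signals of 37.4 and 25.3 in VEGFD arrays and 18.2 and 11.7 in Apex arrays. Its mean lay under the filter, so it was not tested in the reported fit. The VEGFD values were higher without overlap, but lay near the filter signal, and with all 18193 genes fitted the log2 change was 0.61 ± 0.30 (adjusted p = 0.838). Its second probe set was at 2.21 or less on every array.

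Eln encodes tropoelastin, the soluble form from which the fibre core is built. Its signals were 47.3 and 38.2 in VEGFD arrays and 46.1 and 57.4 in Apex arrays. VEGFD replicate 1 lay between the Apex arrays, so the groups overlapped. The log2 change was -0.21 ± 0.28, with a 95% interval of -0.90 to 0.49 (adjusted p = 0.884), and it was -0.085 without Apex replicate 2. The second probe set was below the filter signal on every array, at 7.97 and 2.98 in VEGFD arrays and 2.94 and 6.99 in Apex arrays. By Euclidean distance between log2 values centred on each gene's mean over the 4 arrays, the tested genes closest to Eln were Rhoc (0.0197), a small GTPase gene, Cd81 (0.0346), a tetraspanin gene, and Pigq (0.0355), a gene of GPI anchor synthesis. Rhoc had signals of 2488 and 2148 in VEGFD arrays and 2434 and 2930 in Apex arrays, the same order of arrays as Eln. These genes were picked for closeness on the same 4 arrays, so the shared order follows from the choice. With 4 values per gene, it is no evidence of a link to Eln.

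Mfap4, whose product binds elastin, fibrillin and collagen, was the dimmest member, at 2.44 and 2.19 in VEGFD arrays and 1.64 and 1.88 in Apex arrays. With no detection calls, these values show only a signal far under the filter, and the lack of overlap among them is not read as a difference.

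The fibulins differed in how evenly they were measured. Fbln2, which encodes a fibulin of vessel walls and basement membranes, had signals of 8334 and 7068 in VEGFD arrays and 6403 and 7107 in Apex arrays. VEGFD replicate 2 lay between the Apex arrays. The log2 change was 0.19 ± 0.20 with a 95% interval of -0.33 to 0.70, so an increase of more than 1.62-fold lay outside it (adjusted p = 0.862). A dimmer probe set had 132 and 55.2 in VEGFD arrays and 70.2 and 40.6 in Apex arrays, also overlapping.

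Fbln5 encodes fibulin-5, which binds tropoelastin and integrins and is needed for elastic fibre assembly in mice. Its signals were 986 and 652 in VEGFD arrays and 837 and 831 in Apex arrays. The Apex arrays were 1.01-fold apart and lay between the VEGFD arrays, which were 1.51-fold apart. The log2 change was -0.055 ± 0.27, with a 95% interval of -0.74 to 0.63 (adjusted p = 0.972). The sign depended on which VEGFD array was used: -0.35 with replicate 1 left out and 0.24 with replicate 2 left out.

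Fbln1, which encodes a fibulin found with elastin, fibronectin and basement membranes, varied more between VEGFD replicates than any other member. Its signals were 31.4 and 125 in VEGFD arrays and 71.1 and 74.3 in Apex arrays. The VEGFD replicates were 3.97-fold apart and stood on opposite sides of the Apex arrays, which were 1.04-fold apart. The log2 change of -0.12 ± 0.54 therefore averages opposite differences, of 0.66 with VEGFD replicate 1 left out and -0.90 with VEGFD replicate 2 left out (adjusted p = 0.967 on all arrays). The second probe set showed the same order of the VEGFD arrays, with 12.1 and 63.6 in VEGFD arrays and 35.0 and 30.9 in Apex arrays. The third had 10.02 and 29.5 in VEGFD arrays and 9.97 and 29.3 in Apex arrays, so there replicate 2 was the higher array of both groups.

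**Figure D2:**
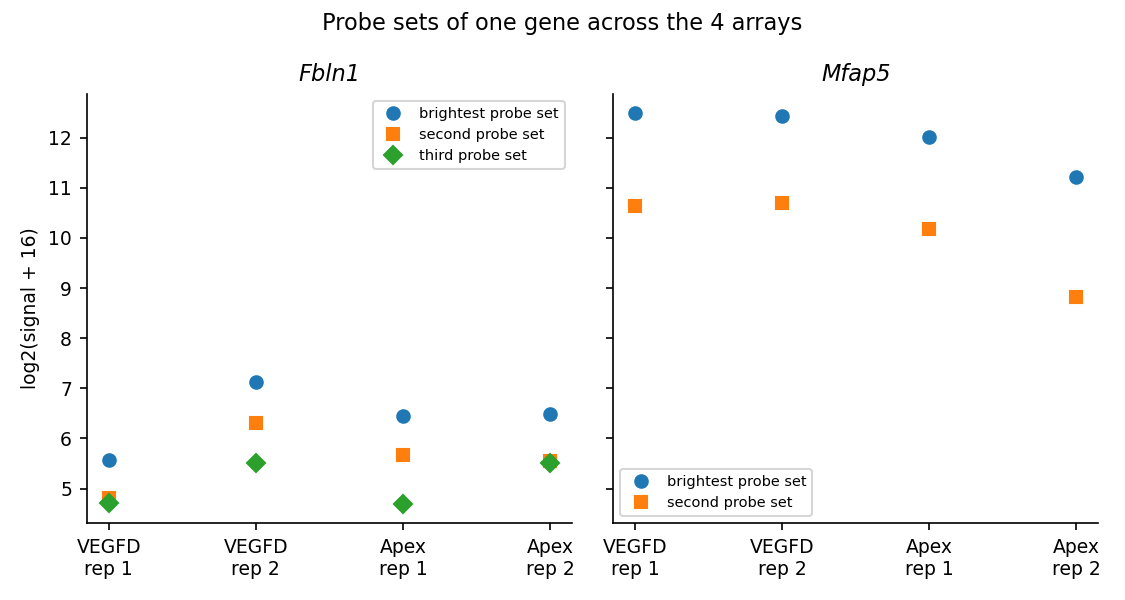
Values of log2(signal + 16) for each probe set of Fbln1 (left, 3 probe sets) and Mfap5 (right, 2 probe sets) on the VEGFD and then the Apex arrays. The brighter Fbln1 probe sets place VEGFD replicate 1 below and VEGFD replicate 2 above both Apex arrays, and both Mfap5 probe sets are lowest in Apex replicate 2.

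**Figure D3:**
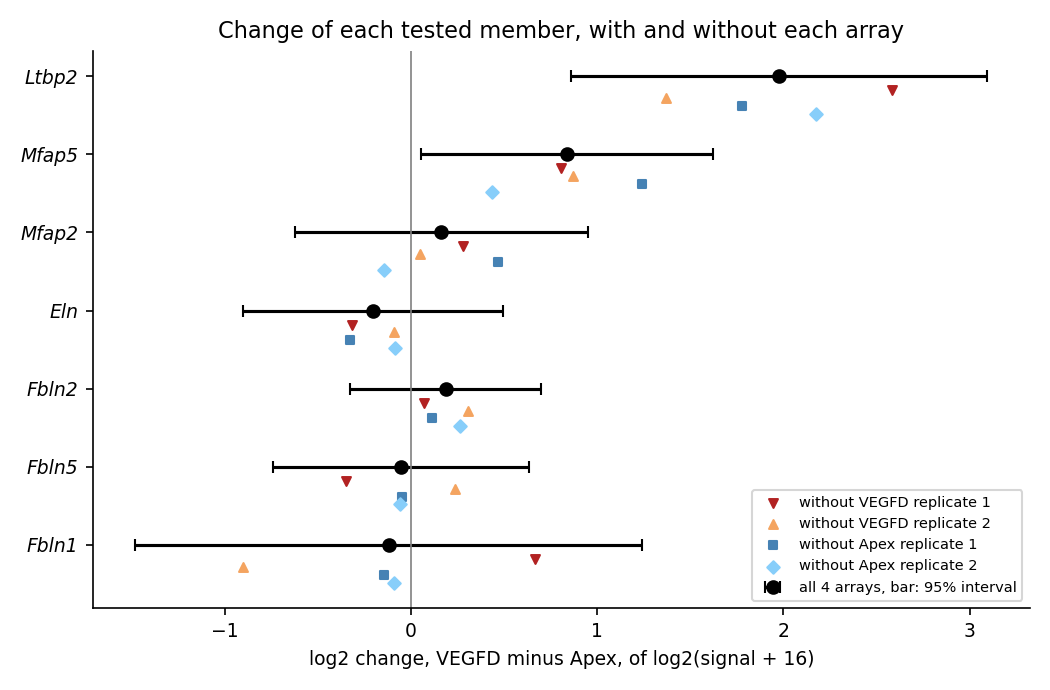
The log2 change, VEGFD minus Apex, of each tested member on all 4 arrays (black, bar: 95% interval of the limma fit) and with 1 array left out (coloured symbols). The interval lies above 0 for Ltbp2 (0.86 to 3.09) and Mfap5 (0.053 to 1.62), and the Fbln1 value changes sign with the VEGFD array left out.

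Genes that work with elastic fibres were described from lists of partners, with 59 of 86 genes tested. By limma 0 of the 59 passed an adjusted p of 0.05, and 10 had an unadjusted p under 0.05, beside 5.7% of all tested genes. Where a named and tested partner or marker has no adjusted p of its own on all 4 arrays, that value was 0.823 or more. The exception was the fibroblast marker Dpt, with a limma adjusted p of 0.115. The assembly partners were mostly lower in VEGFD arrays, with 18 of 20 tested genes below 0 and a median log2 change of -0.50, where 6260 of all 11677 tested genes were below 0. The median was -0.29 without Apex replicate 2. Fewer were below 0 in other fits, 14 with arrays centred on their medians, a scaling that moved the median of all genes to 0.088, 14 with averaged probe sets and 13 without VEGFD replicate 2. No overlap was seen for 9 of the 20, beside the 38.5% of all tested genes. Tnxb, which encodes the matrix protein tenascin-X, had signals of 180 and 25.3 in VEGFD arrays and 336 and 196 in Apex arrays, and a log2 change of -1.60 ± 0.76. The change was -2.73 when VEGFD replicate 1 was left out (adjusted p = 0.019) but -0.48 when VEGFD replicate 2 was. Hmcn1, which encodes hemicentin-1, a long relative of the fibulins, had 13.2 and 11.3 in VEGFD arrays and 38.8 and 81.7 in Apex arrays. Its log2 change of -1.37 ± 0.37 was -0.68 with a pseudocount of 64. Adamtsl4, whose product binds fibrillin microfibrils, had 241 and 100.5 in VEGFD arrays and 380 and 374 in Apex arrays, a log2 change of -1.18 ± 0.41, which was -1.75 (adjusted p = 0.0215) with VEGFD replicate 1 left out and -0.61 with VEGFD replicate 2 left out.

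Lysyl oxidases cross-link elastin and collagen. Of 4 tested genes of this family 3 were higher, with a median of 0.41 that was 0.15 without VEGFD replicate 2. Lox, the founding member of the family, had signals of 8924 and 8478 in VEGFD arrays and 6374 and 7466 in Apex arrays, with a log2 change of 0.33 ± 0.20. Loxl1, which binds fibulin-5 and tropoelastin, had 2707 and 2583 in VEGFD arrays and 2010 and 1777 in Apex arrays, with a log2 change of 0.48 ± 0.20. Neither overlapped between groups, and the limma adjusted p values were 0.826 and 0.823. With averaged probe sets the log2 change was 0.17 for Lox and 0.44 for Loxl1. Loxl3 overlapped, at 1274 and 2969 in VEGFD arrays and 1324 and 1365 in Apex arrays (0.53 ± 0.42).

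Among enzymes that can break down elastic fibres, 3 of 8 tested genes were higher and 5 lower, with a median of -0.24. All 8 were lower when VEGFD replicate 1 was left out, 7 when Apex replicate 1 was, and 4 with averaged probe sets. Ctsk, which encodes the elastin-cleaving protease cathepsin K, had 752 and 392 in VEGFD arrays and 939 and 1617 in Apex arrays, a log2 change of -1.16 ± 0.42. That change was -0.70 when VEGFD replicate 2 was left out and -0.77 when Apex replicate 2 was. Mmp3, the stromelysin gene, had 200 and 54.5 in VEGFD arrays and 199 and 410 in Apex arrays, and overlapped. Its log2 change was -1.29 ± 0.62, and -0.49 when VEGFD replicate 2 was left out. Cela1, an elastase gene, had a log2 change of -0.66 ± 0.28. The other 7 of 15 listed lay under the filter, among them the macrophage elastase gene Mmp12, named after its values were seen, at 3.08 and 8.16 in VEGFD arrays and 1.66 and 0.761 in Apex arrays.

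Of 8 tested inhibitor genes 4 were higher and 4 lower, with a median of -0.082. This split rested on single arrays, with 2 higher, 6 lower and a median of -0.68 when VEGFD replicate 1 was left out, and 6 higher, 2 lower and a median of 0.48 when VEGFD replicate 2 was. Timp4, which encodes a tissue inhibitor of metalloproteinases, had signals of 17.9 and 11.3 in VEGFD arrays and 90.8 and 122 in Apex arrays, with a change of -1.999 ± 0.30 on the log2 scale (adjusted p = 0.511). Both VEGFD values lay under the filter, and the change was -1.11 with a pseudocount of 64 and -1.31 with averaged probe sets. With VEGFD replicate 1 left out it was -2.16 and passed (adjusted p = 0.0321). Slpi, the gene of a serine protease inhibitor, had 160 and 298 in VEGFD arrays and 123 and 89.9 in Apex arrays, with a log2 change of 0.96 ± 0.36. Cst3, the cystatin C gene, had 2599 and 1382 in VEGFD arrays and 2939 and 4004 in Apex arrays, a log2 change of -0.85 ± 0.36. When VEGFD replicate 2 was left out, Slpi was at 0.54 and Cst3 at -0.40; when VEGFD replicate 1 was, Cst3 was at -1.30.

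Growth factors that microfibrils hold, with their receptors, were 6 higher and 5 lower among 11 tested genes. Their median of 0.17 became -0.35 when VEGFD replicate 1 was left out and -0.29 when Apex replicate 1 was. Tgfbr1, which encodes the type I receptor of TGF-beta, had signals of 732 and 1274 in VEGFD arrays and 501 and 263 in Apex arrays, and a log2 change of 1.37 ± 0.42. Inhba, which encodes the activin A subunit, had 628 and 2443 in VEGFD arrays and 585 and 475 in Apex arrays. Its log2 change of 1.21 ± 0.63 was 2.18 when VEGFD replicate 1 was left out and 0.24 when VEGFD replicate 2 was. With averaged probe sets it was 0.61. Bmp7, a bone morphogenetic protein gene, had 13.9 and 8.97 in VEGFD arrays and 70.6 and 40.2 in Apex arrays, a log2 change of -1.35 ± 0.34, which was -0.65 with a pseudocount of 64.

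Integrin subunit genes whose products bind fibrillins, fibulin-5 or latent TGF-beta were 5 higher and 3 lower among 8 tested. Itgb1, the shared beta 1 subunit gene, had signals of 3323 and 3485 in VEGFD arrays and 1968 and 1592 in Apex arrays. The replicates lay close together and the groups did not overlap, with a log2 change of 0.94 ± 0.22 (adjusted p = 0.782). That change was 0.73 with averaged probe sets. Itgb8, whose product helps to activate latent TGF-beta, had 31.5 and 20.3 in VEGFD arrays and 105 and 163 in Apex arrays, with a log2 change of -1.83 ± 0.33 (adjusted p = 0.671) that was -1.13 with a pseudocount of 64. Without VEGFD replicate 1 it was -2.02 and passed (adjusted p = 0.0410). Itga5, the fibronectin receptor subunit gene, had 285 and 1751 in VEGFD arrays and 267 and 350.1 in Apex arrays. Its log2 change of 1.18 ± 0.82 was 2.46 when VEGFD replicate 1 was left out and -0.095 when VEGFD replicate 2 was. With averaged probe sets it was 0.66.

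**Figure D4:**
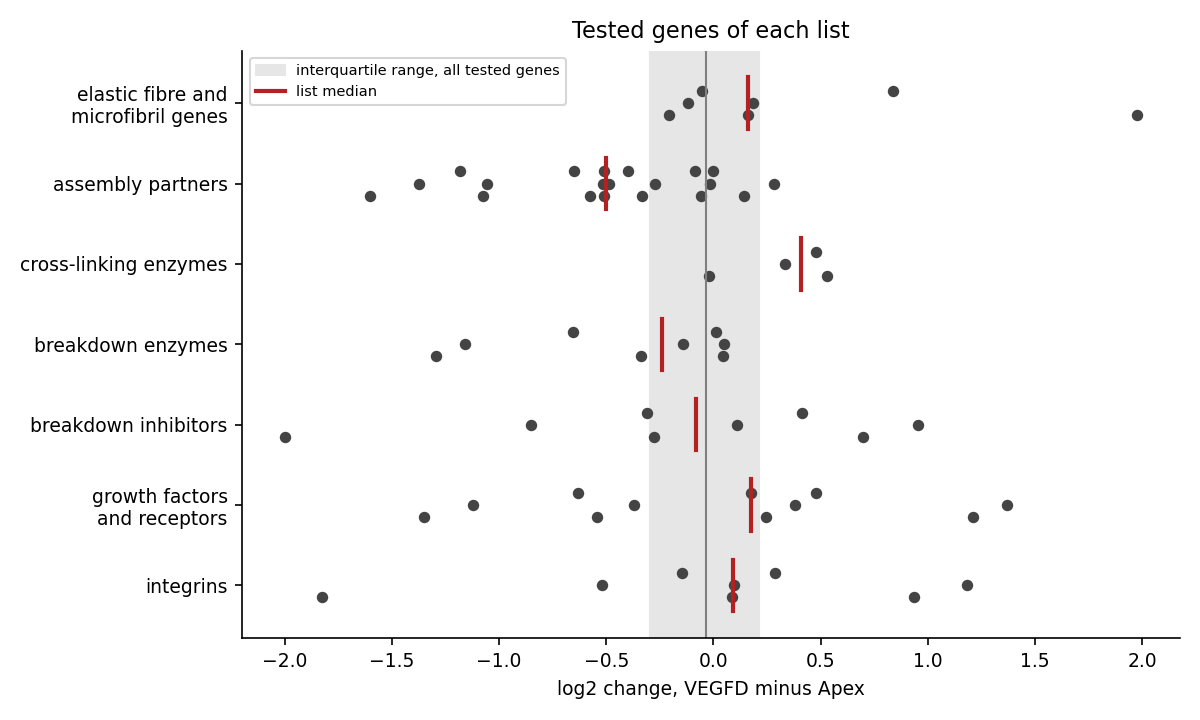
Log2 change, VEGFD minus Apex, of every tested gene (points) in the elastic fibre and microfibril genes and in each partner list, with list medians in red; the grey band is the interquartile range and the grey line the median of all tested genes (-0.035). The assembly partners centre on -0.50 and the cross-linking enzymes on 0.41, while Ltbp2 and Mfap5 stand apart at the right of the top line.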

How the data were processed

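Total RNA was hybridised to 4 Affymetrix mouse arrays, 2 VEGFD and 2 Apex. The deposited values are linear intensity, 1 signal per probe set; the algorithm behind them is not stated in the labels or headers. In these deposited values each array has a mean of 150 after trimming 2% of probe sets at each end. The median signal was 26.3 and 23.9 in VEGFD arrays and 27.1 and 30.5 in Apex arrays. Scale was linear, and any further centring was not known. Control probe sets (64 of 45101) and the 932 with several genes were left out; a further 9160 were unnamed. Of the 34945 with 1 symbol, 34741 matched the GRCm38.p6 gene table.

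Values were used as log2(signal + 16). Genes, by their probe set of highest mean signal, were tested where its mean log2 reached 5.37, the median of non-control probe sets, leaving 11677 genes. limma 3.58.1 in R 4.3.3 (lmFit, eBayes with an intensity trend) gave two-sided p-values across all genes, adjusted by Benjamini-Hochberg at 0.05. An exact permutation test of 2 against 2 cannot go below p = 0.333. The precision is limited by the number of arrays. Alternatives were other scalings, pseudocounts, filters and probe set rules, no intensity trend, a replicate block and each array left out. Named were all members, the tested genes of each partner list that passed (at most 4) or else the 3 with the largest absolute log2 change, up to 3 leading markers of a cell type and the 3 genes closest to Eln. Members and lists were chosen with earlier results of these data known. Fits with 1 array left out assume that the lone array varies like the others. The procedure was also run on simulated arrays with independent normal values, without the uneven marker sums of the real arrays. The outcome of that run is not given here and is no support for the results.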

Additional observations from a re-analysis of the deposited data

How the results depend on the processing

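Ltbp2 and Mfap5 were higher in VEGFD arrays in each of the 14 other analyses run. Their groups did not overlap, so the sign could not turn with an array left out or another pseudocount. Nor could it turn with another filter, no intensity trend or the replicate block, which use the same values. The count is therefore no independent support. Genes that passed numbered 6 with the replicate number as a block, none of them a member, and the labels do not say that same-numbered arrays are paired (correlation of their deviations 0.20). With 1 array left out they numbered 0 to 372 (372 without VEGFD replicate 1), and members that passed 0 to 1. Genes 2-fold apart without overlap numbered 453, against 229 with a pseudocount of 64, 226 with a stricter filter (fewer genes tested) and 442 to 1348 with 1 array left out, where no overlap is easier to meet. Members 2-fold apart numbered 1 to 2, Mfap5 joining without Apex replicate 1. The members' median was 0.51 with the stricter filter, which kept 4 of them, and -0.060 to 0.28 with 1 array left out. Some signs turned. Mfap2 was -0.049 with averaged probe sets, -0.26 by its next brightest probe set and -0.14 to 0.47 with 1 array left out. Fbln1 was 0.0029 with arrays centred on their medians and -0.90 to 0.66 with 1 array left out. Fbln5 was 0.068 with centred arrays, 0.0089 with averaged probe sets, 0.073 by its next probe set and -0.35 to 0.24 with 1 array left out. Eln was 0.032 by its second probe set, and had no averaged value since that fell under the filter. Loxl3 ran from -0.077 to 1.13 and Itga5 from -0.095 to 2.46 with 1 array left out. The cause was not tested. The next brightest probe sets were chosen after seeing the data.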
